A study of Bos taurus with 8 samples.

Results

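The aminoacyl-tRNA synthetase genes were taken by symbol from the authors' deposited series table. The rule kept symbols made of 1 letter followed by ARS, with or without a closing 2, together with EPRS, FARSA and FARSB. It found 35 genes with 92 probes, of 16966 gene symbols and 43653 probes on the array. Of these, 20 genes with 54 probes lacked the closing 2 and are called cytosolic here, and 15 genes with 38 probes carried it and are called mitochondrial. GARS and KARS are known to serve both compartments and are counted as cytosolic.

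The samples were bovine whole blood from 5 female Holstein Friesian cows that had received a probiotic for 60 days. Freshly drawn blood was kept for 30 min at 37 °C under 5% CO2 with cowpea leaf phenolic extract at 10 µg/ml (CPE) or without it (CONTROL), and each group had 4 arrays. The contrast of CPE with CONTROL addresses the early response of blood transcripts to the extract. The arrays carried pooled RNA per the series text, so the standard errors (SE) and p-values measure only the scatter of arrays, which may be technical. One slide carried all CPE arrays and another all CONTROL arrays, so that slide, scan and treatment cannot be told apart in any result given here. In bulk blood, fewer cells of a type and less RNA per cell cannot be told apart either.

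Aminoacyl-tRNA synthetases join each amino acid to its tRNA, the step that sets which amino acid a codon is read as. Cytosolic enzymes supply the ribosomes of the cytosol, and a separate set of nuclear genes encodes the enzymes of mitochondria. Several cytosolic enzymes are held in a multi-synthetase complex by the scaffold proteins AIMP1, AIMP2 and EEF1E1. In blood cells, WARS is known as an interferon-induced gene, and fragments of YARS and WARS are known to act as signals outside the cell.

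The probes were 60 bases long. Those on which the comparison turned most are printed in lower case throughout, since no part of them was singled out. For YARS and HARS2 the first 30 bases are given, and for the others the whole probe. NARS is shown with both of its tested probes because they gave different results.
YARS: aactgtgggatttgaaaagtggagggaagg
NARS dimmer probe: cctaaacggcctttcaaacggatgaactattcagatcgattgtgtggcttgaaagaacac
NARS brighter probe: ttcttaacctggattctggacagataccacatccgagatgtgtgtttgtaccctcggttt
WARS2: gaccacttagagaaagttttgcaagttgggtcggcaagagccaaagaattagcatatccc
DARS: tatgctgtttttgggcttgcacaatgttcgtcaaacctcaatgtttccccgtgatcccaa
HARS2: taataggtgacctgacaagatggagatatg

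Large parts of each array were dim, and 31.87% to 50.19% of the spots of an array lay in its bright part. A spot was called lit on an array where the upper range of raw brightness over its 61 nearest spots came within 1.5 log2 units of that array's bright level, and 13080 spots were lit on all 8 arrays. A synthetase probe was tested where it was lit and well above background on all 8, which held for 23 probes of 19 genes, 10 of them cytosolic and 9 mitochondrial. A further 7 probes were well above background on all 8 arrays but not lit on all 8, 3 were lit but dim, and 59 were neither. Levels are log2 processed signal minus the 75th percentile of the lit probes of that array. They are read for 1 probe across arrays and not between probes.

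**Figure D1:**
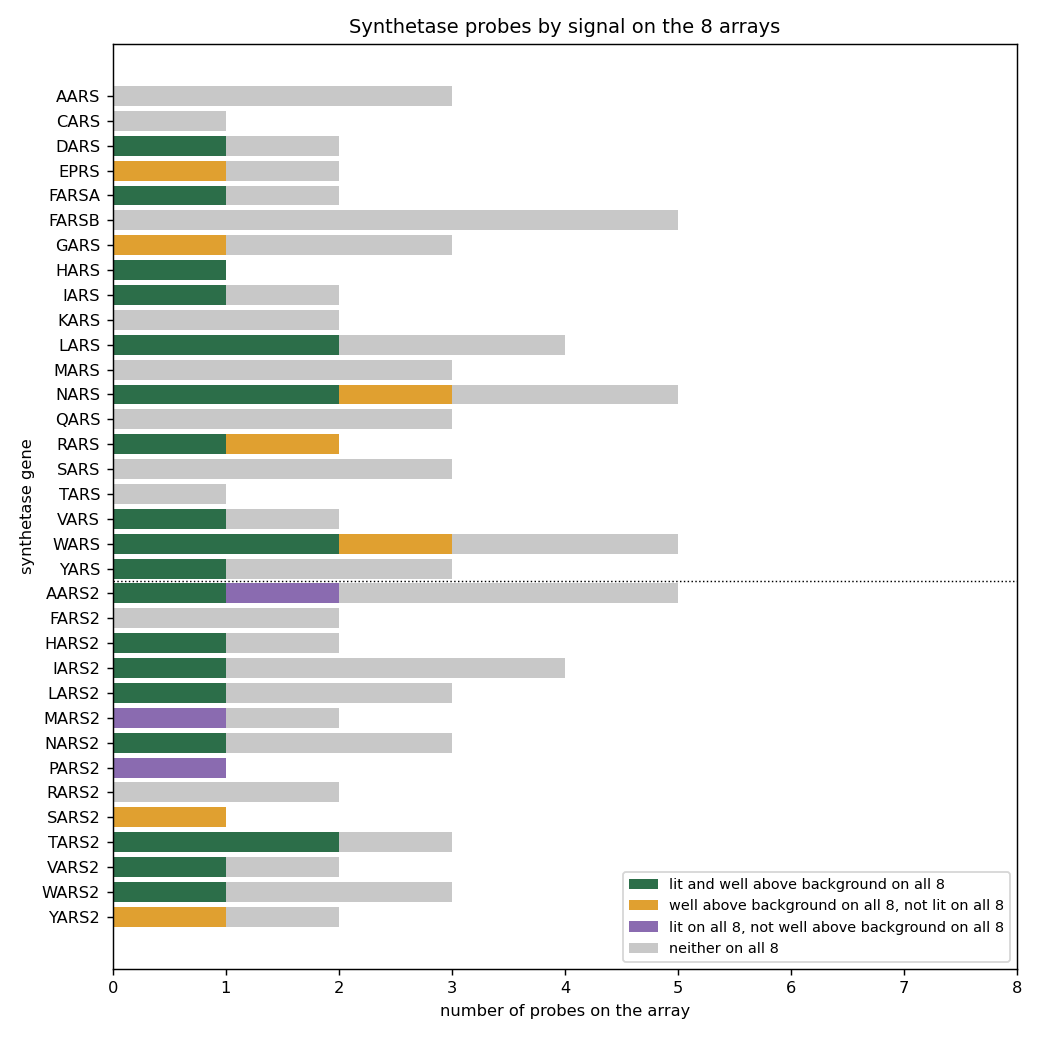
Bars give the number of probes of each of 34 synthetase genes, split by whether they were lit and well above background on all 8 arrays. Cytosolic genes stand above the dotted line and mitochondrial genes below it, and the tested probes are in green.

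Of the 16 genes with no tested probe, 10 had probes that were neither lit nor well above background on all 8 arrays. These were AARS, CARS, FARSB, KARS, MARS, QARS, SARS and TARS among the cytosolic enzymes, and FARS2 and RARS2 among the mitochondrial ones. EPRS, GARS, SARS2 and YARS2 each had a probe well above background on all 8 arrays, but outside the area lit on all 8. MARS2 and PARS2 had a lit probe that was too dim. No statement on expression follows for these genes from the lit area.

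In the lit area, YARS, NARS, DARS and WARS2 were higher in CPE, and no synthetase was called lower. These 4 genes encode the cytosolic enzymes for tyrosine, asparagine and aspartate, and the mitochondrial enzyme for tryptophan. They were 4 of 23 probes by limma with Benjamini-Hochberg adjustment over 7219 probes, at an adjusted p under 0.05. Over all probes, 22.9% were called higher and 25.5% lower, so the share of synthetase probes called higher was not above the background. An unadjusted limma p under 0.05 was found for 4021 of all 7219 probes and for 7 of the 23. The groups did not overlap in 5 probes that were higher and 1 that was lower, where 23.0% and 27.3% of all probes did so.

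YARS (NM_174220), the tyrosyl-tRNA synthetase, had levels of -0.40, -0.45, 0.55 and -0.55 on CPE arrays 1 to 4. On the CONTROL arrays its levels were -1.11, -1.01, -1.10 and -1.28. In these scaled levels every CPE array lay above every CONTROL array, with CPE array 3 far above the other 3. Before scaling, CPE array 3 stood near the others, with processed signals of 563.9, 501, 579.5 and 469.2 intensity units on CPE arrays 1 to 4. YARS was 1.88-fold higher in CPE (log2 0.91, SE 0.23, limma adjusted p = 0.0101). Without CPE array 3 the log2 difference was 0.66, and YARS was called higher at the threshold of 0.05 under each alternative run; at 0.01 it was not.

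The dimmer probe of NARS (NM_001046572), the asparaginyl-tRNA synthetase, had levels of -1.08, -1.04, -1.28 and -1.08 on the CPE arrays. On the CONTROL arrays they were -1.85, -1.72, -1.74 and -1.78. The groups were tight and did not overlap. This probe was 1.57-fold higher in CPE (log2 0.65, SE 0.081, limma adjusted p = 0.000307).

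The brighter NARS probe had levels of 0.57, 0.91, 0.11 and 0.54 on the CPE arrays and of 0.41, 0.40, 0.32 and 0.58 on the CONTROL arrays. CPE array 2 was the highest and CPE array 3 the lowest, and the groups overlapped. Its log2 difference of 0.10 did not pass the test (SE 0.16, limma adjusted p = 0.613, 95% interval -0.25 to 0.46), and it was -0.024 without CPE array 2. It passed with local centring, at 0.37 (limma adjusted p = 0.000507), and with array weights, at 0.18 (adjusted p = 0.0248). Most probes passed in these settings, here and where they are named below. Of all 7219 probes, local centring called 3194 higher and 2001 lower, and array weights 2559 and 2630. Within an array, the brighter probe minus the dimmer one averaged 1.65 ± 0.23 on the CPE arrays and 2.20 ± 0.14 on the CONTROL arrays (SD, n = 4 arrays each). This difference of -0.55 does not depend on any scaling between arrays, and the groups did not overlap. Its exact two-sided permutation p was 0.0286, the smallest that 4 against 4 arrays allow, and 0.0801 after adjustment over 14 such contrasts. The 2 probes share no stretch of 12 bases, and their mean read 0.38 and passed (limma adjusted p = 0.0202).

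WARS2 (NM_001034582), the mitochondrial tryptophanyl-tRNA synthetase, had levels of 0.24, 0.32, 0.21 and 0.25 on the CPE arrays. On the CONTROL arrays they were -0.24, -0.22, -0.21 and -0.023. The groups did not overlap, and CONTROL array 4 lay nearest to CPE. WARS2 signal was 1.35 times higher in CPE (log2 0.43, SE 0.079, limma adjusted p = 0.00228). The calls of WARS2 and of the dimmer NARS probe passed at 0.01 as well. Of the settings in which they were tested, they were lost where arrays were not scaled at all, at 0.26 and 0.48, and in no other. WARS2 was not tested with a limit of 1 for the lit area, nor the dimmer NARS probe where 1 probe stood for a gene.

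DARS (NM_001035085), the aspartyl-tRNA synthetase and a member of the multi-synthetase complex, had levels of 2.05, 2.13, 2.15 and 1.90 on the CPE arrays. On the CONTROL arrays they were 1.53, 1.91, 1.81 and 1.18. CONTROL array 2 lay within the range of CPE and CONTROL array 4 was lowest. DARS signal was 1.37 times higher in CPE (log2 0.45, SE 0.16, limma adjusted p = 0.0404). The call was lost without CPE array 1, 2 or 3 or CONTROL array 1 or 4 (log2 0.45, 0.43, 0.42, 0.43 and 0.31 in that order). With all 8 arrays it was lost with quantile normalization, no scaling, normexp, no filter and array weights (0.38, 0.28, 0.36, 0.45 and 0.20 in that order). The surroundings of its spot were also brighter in CPE by 0.46 log2 units. With local centring DARS read 0.51 and passed (limma adjusted p = 0.000427). The part of the surroundings in the result was not tested further.

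**Figure D2:**
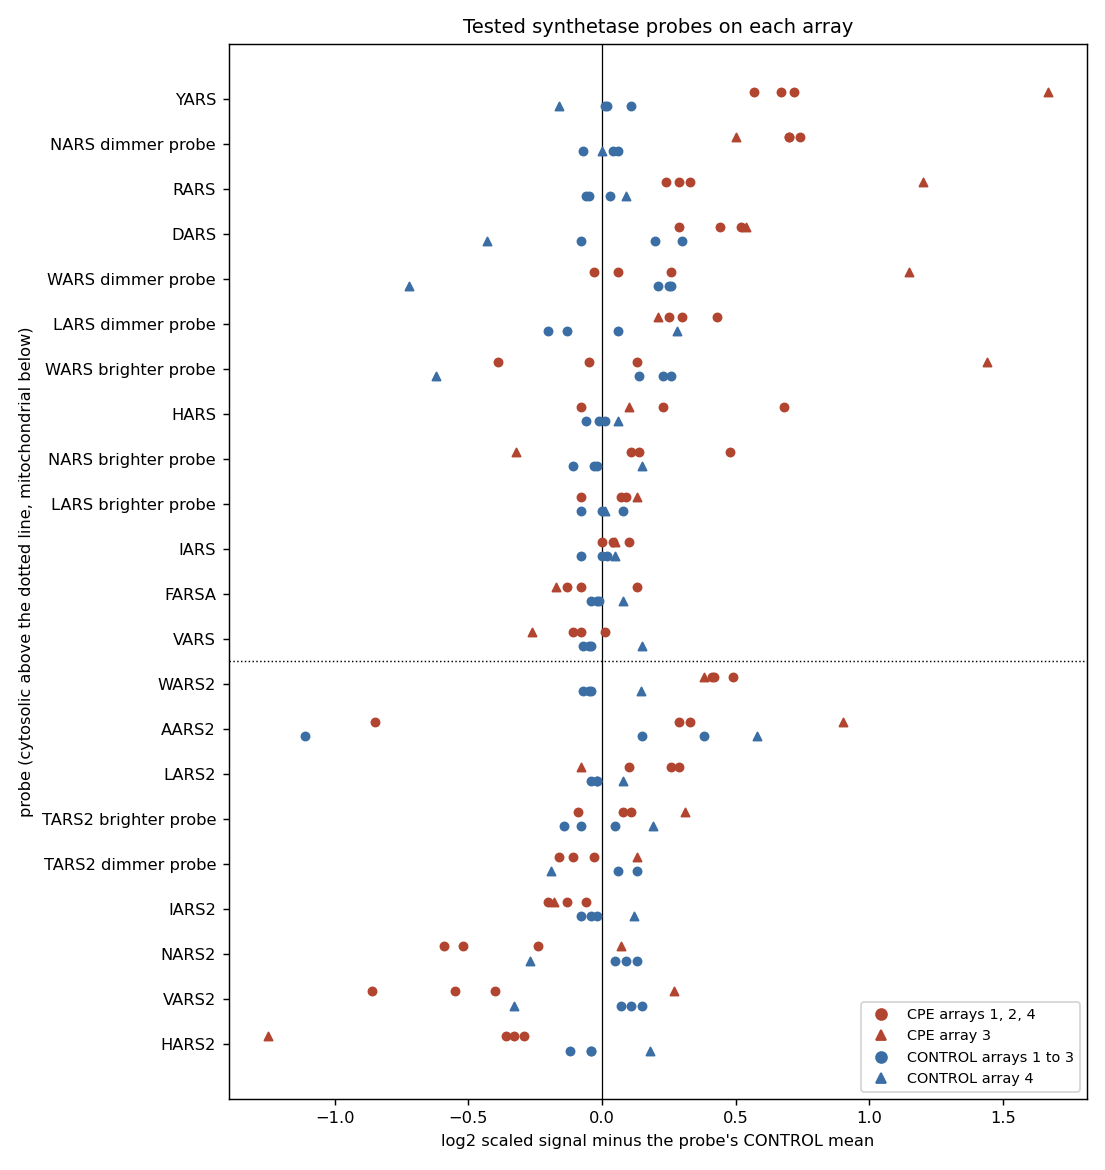
Each point is 1 array, plotted as log2 scaled signal minus the probe's CONTROL mean, for 22 of the tested probes. Triangles mark CPE array 3 and CONTROL array 4, and CPE points of YARS, WARS2, RARS and the dimmer NARS probe all lie above the CONTROL points.

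RARS, the arginyl-tRNA synthetase of the same complex, did not pass the test although its groups did not overlap. Its levels were 1.54, 1.63, 2.50 and 1.59 on the CPE arrays and 1.24, 1.25, 1.33 and 1.39 on the CONTROL arrays. CPE array 3 stood far above the rest. Before scaling it stood near the other CPE arrays, with processed signals of 2166, 2123, 2238 and 2070 intensity units on CPE arrays 1 to 4. The log2 difference was 0.51 (SE 0.20, limma adjusted p = 0.0638), and without CPE array 3 it was 0.28 and passed (adjusted p = 0.00764). With all 8 arrays RARS also passed with array weights, at 0.31, and with local centring, at 0.37.

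LARS, the leucyl-tRNA synthetase, had 2 tested probes, at log2 0.054 (SE 0.079) and 0.29 (SE 0.12). Neither passed (limma adjusted p = 0.598 and 0.0641), and the dimmer one passed without CONTROL array 4, at 0.39. With all 8 arrays the dimmer probe passed with quantile normalization, array weights, a limit of 1 and local centring (0.38, 0.37, 0.33 and 0.47 in that order), and the brighter one with local centring, at 0.17. IARS, the isoleucyl-tRNA synthetase, read 0.048 (SE 0.07, 95% interval -0.11 to 0.21).

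The list of multi-synthetase complex genes held 8 tested probes of 6 of its 11 genes, and all 8 had log2 differences above 0, with 3 called higher. Over all 7219 probes, 3584 lay above 0 and 22.9% were called higher. The median of the 8 was 0.33, against -0.0041 over all probes. Without scaling, IARS and the brighter LARS probe read -0.13 and -0.12, so this count of 8 rests on the scaling. Both probes of AIMP2, the scaffold that binds several of these enzymes, were higher, at log2 1.34 (SE 0.34, limma adjusted p = 0.012) and 0.36 (SE 0.088, adjusted p = 0.00928). Within an array the AIMP2 probes differed by 0.56 ± 0.24 on CPE arrays and -0.42 ± 0.92 on CONTROL arrays (SD, n = 4 per group; exact permutation p = 0.0286, adjusted 0.0801). CONTROL array 4 alone read -1.77. EEF1E1, the other scaffold gene measured, read 0.19 (SE 0.13) and did not pass.

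Among cytosolic enzymes outside the complex, WARS, the tryptophanyl-tRNA synthetase, varied most between arrays. Its brighter probe had levels of 1.61, 1.09, 2.92 and 1.43 on the CPE arrays and 1.62, 1.74, 1.71 and 0.86 on the CONTROL arrays. CPE array 3 was high and CONTROL array 4 low, and the other arrays of both groups overlapped. The log2 difference was 0.28 (SE 0.38, limma adjusted p = 0.571), and it turned to -0.11 without CPE array 3. The dimmer WARS probe read 0.36 (SE 0.31) with the same 2 arrays apart, and 0.093 without CPE array 3.

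HARS, the histidyl-tRNA synthetase, read 0.23 (SE 0.15), FARSA, the catalytic subunit of the phenylalanyl-tRNA synthetase, read -0.067 (SE 0.088), and VARS, the valyl-tRNA synthetase, read -0.11 (SE 0.09). None of these passed. When each array was centred on its local surroundings, VARS read 0.33 and passed (limma adjusted p = 0.000699) and FARSA read 0.061, so neither sign held.

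The 13 cytosolic probes had a median log2 difference of 0.28, with 11 above 0 and 3 called higher. The 10 mitochondrial probes had a median of 0.028, with 5 above 0 and 1 called higher. Among all 23, 16 lay above 0 with a median of 0.14. Without scaling 10 lay above 0, and with local centring 20 did, the median of all probes then being -0.18 and 0.12. By catalytic fold, class I had 2 of 12 probes called higher and class II 2 of 11, with medians of 0.21 and 0.10. The share called higher over all probes was 22.9%, and no difference between these groups of synthetases was tested.

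HARS2, the mitochondrial histidyl-tRNA synthetase, had the lowest log2 difference of the synthetases. Its levels were 1.62, 1.59, 0.70 and 1.66 on the CPE arrays and 1.83, 1.91, 1.91 and 2.13 on the CONTROL arrays. All CPE arrays lay below all CONTROL arrays, and CPE array 3 was far below the other 3. The log2 difference of -0.55 did not pass (SE 0.21, limma adjusted p = 0.0545). Without CPE array 3 it was -0.32 and passed (adjusted p = 0.011). With all 8 arrays it passed with quantile normalization, normexp, array weights and a limit of 1 (-0.61, -0.34, -0.27 and -0.52 in that order). The limma adjusted p was 0.0396, 0.0494, 0.00393 and 0.05 in that order, the last under the threshold only before rounding. With local centring the difference was -0.085 and did not pass.

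VARS2 and NARS2, the mitochondrial valyl- and asparaginyl-tRNA synthetases, read -0.39 (SE 0.23) and -0.32 (SE 0.16). VARS2 had levels of -1.94, -2.40, -1.27 and -2.09 on the CPE arrays and -1.47, -1.43, -1.39 and -1.87 on the CONTROL arrays. NARS2 had -3.34, -3.41, -2.75 and -3.06 against -2.77, -2.69, -2.73 and -3.09. In both, CPE array 3 was the highest of its group and CONTROL array 4 the lowest of its own. Before scaling, the NARS2 signal on CPE array 3 was the lowest of its group, at 58.98 intensity units. For VARS2 it was 164.8, within the range of the other CPE arrays. Neither passed, and both passed without CPE array 3, at -0.60 (limma adjusted p = 0.0104) and -0.45 (adjusted p = 0.0162). With all 8 arrays both passed with array weights, at -0.60 and -0.47, and with local centring, at -0.43 and -0.33. Without that array, 3 of the 23 synthetase probes were therefore called lower, HARS2, VARS2 and NARS2, all of them mitochondrial. Over all probes, 2143 of 7219 were called lower without that array, so the synthetase share was not above the background.

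IARS2, LARS2, AARS2 and TARS2 did not pass. IARS2 read -0.14 (SE 0.077), LARS2 0.14 (SE 0.098), and AARS2 0.16 with a wide 95% interval of -0.84 to 1.17. LARS2 passed without CPE array 3, at 0.22, and with all 8 arrays it passed with array weights, at 0.29, and local centring, at 0.44. IARS2 and the dimmer TARS2 probe passed with array weights, at -0.12 and -0.16. TARS2 had 2 probes at 0.098 (SE 0.11) and -0.041 (SE 0.11), the second with 3 CONTROL arrays because 1 spot was marked as an outlier.

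**Figure D3:**
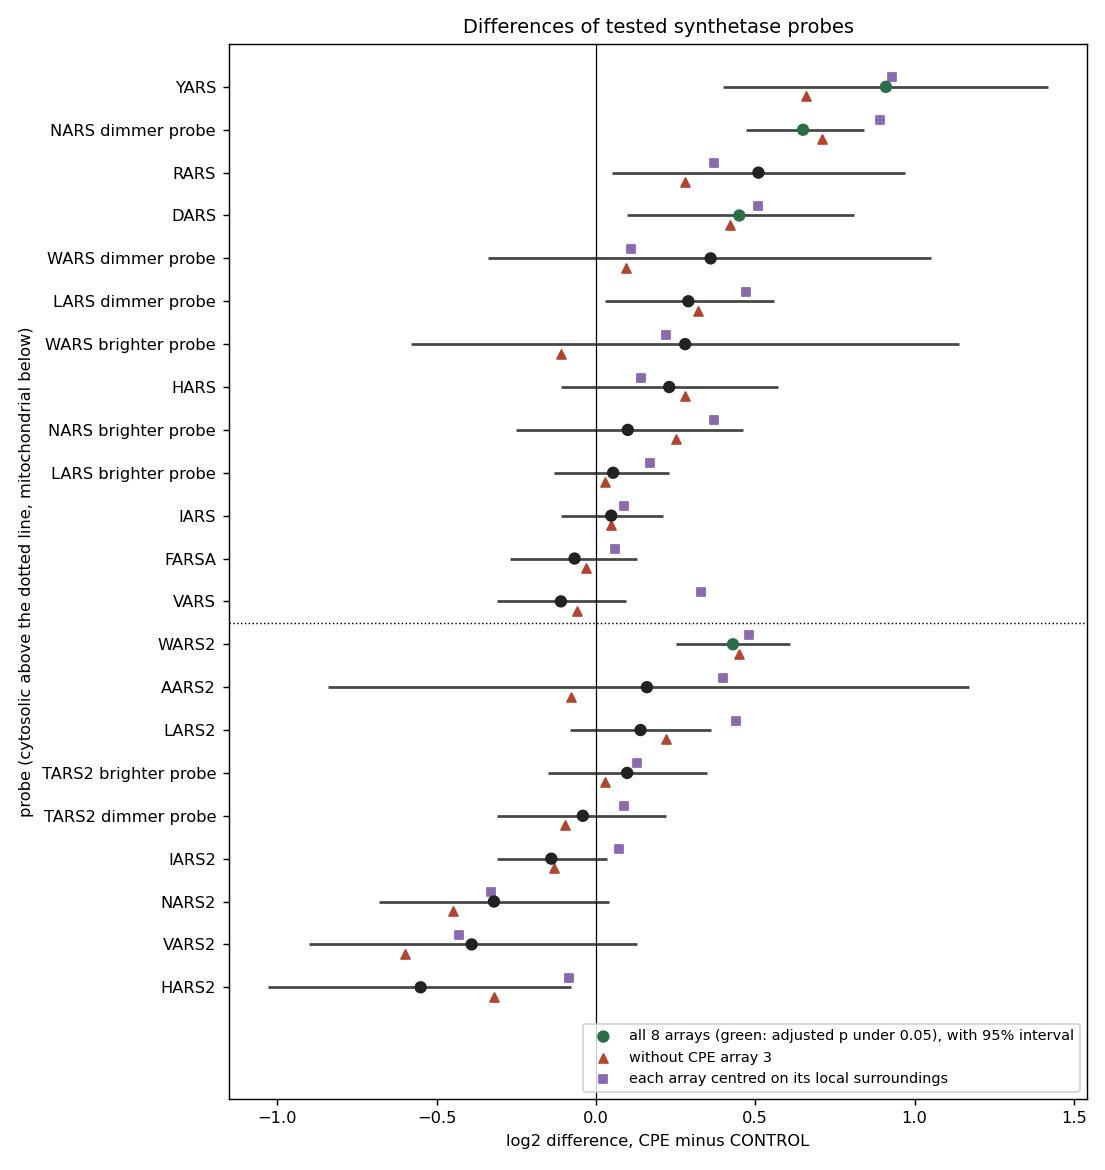
Points give the log2 difference, CPE minus CONTROL, of 22 tested probes with 95% intervals from limma; green points passed at an adjusted p under 0.05. Triangles leave out CPE array 3 and squares use local centring. YARS, WARS2 and the dimmer NARS probe stay above 0 in all 3, as do many other probes, among them DARS, RARS and both LARS probes.

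Enzymes for the same amino acid in the 2 compartments were set against each other within each array, which removes any scaling between arrays. These contrasts were chosen after the data had been seen. HARS minus HARS2 averaged -0.61 ± 0.50 in CPE and -1.39 ± 0.096 in CONTROL (SD, n = 4 arrays each). IARS minus IARS2 averaged 2.44 ± 0.028 and 2.25 ± 0.049. In both pairs the cytosolic probe gained on the mitochondrial one, by 0.79 and 0.19 log2 units, and the groups did not overlap. The surroundings of the HARS and IARS spots were brighter in CPE by 0.41 and 0.48 log2 units. For HARS2 and IARS2 this difference was -0.0075 and -0.12. With local centring HARS read 0.14 and HARS2 -0.085, and IARS read 0.087 and IARS2 0.071. The part of the surroundings in these gains was not tested. The asparagine pair depended on the probe of NARS. The dimmer NARS probe minus NARS2 averaged 2.02 ± 0.40 in CPE and 1.05 ± 0.17 in CONTROL, a gain of 0.97 with no overlap, and the brighter probe gave 0.42 with overlapping groups. With local centring the dimmer NARS probe read 0.89 and NARS2 -0.33. The 3 contrasts without overlap each had an exact two-sided permutation p of 0.0286, or 0.0801 after adjustment over the 14 contrasts, so none of them passed. The pairs for leucine, valine and tryptophan, with each tested cytosolic probe in turn, had contrasts between -0.15 and 0.28 with overlapping groups.

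**Figure D4:**
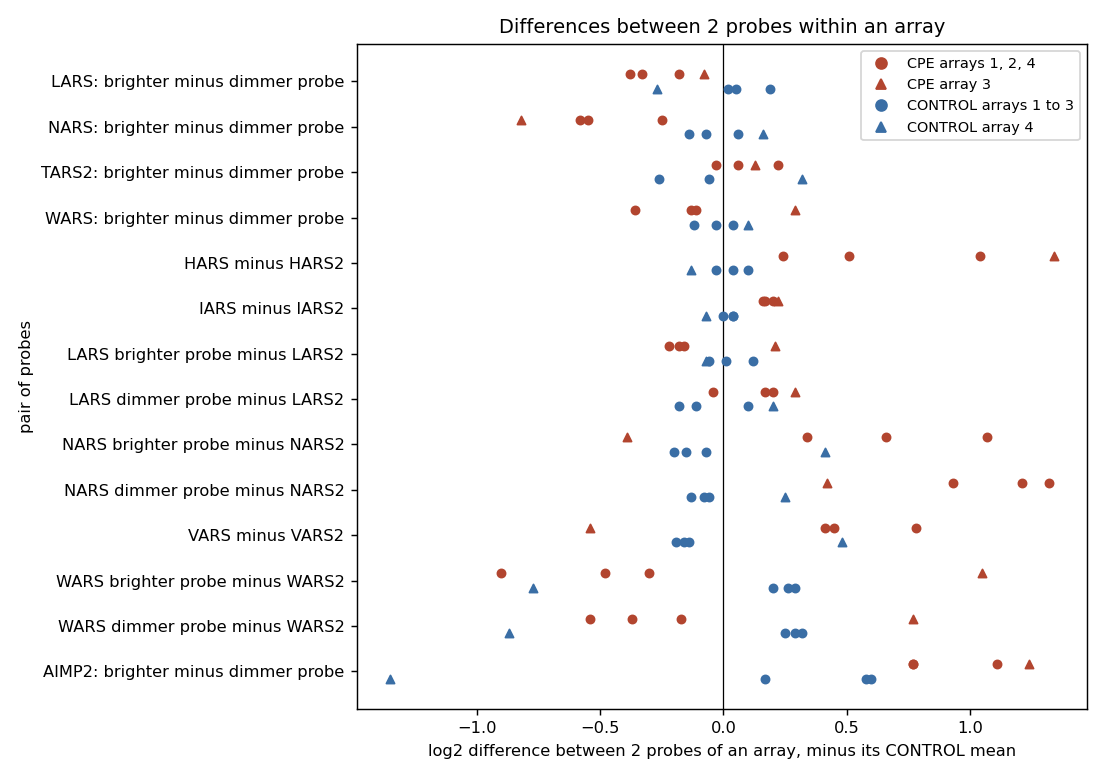
Each point is the log2 difference between 2 probes of 1 array, minus its CONTROL mean, for 14 pairs. The CPE and CONTROL arrays do not overlap for the NARS and AIMP2 probe pairs, HARS minus HARS2, IARS minus IARS2 and the dimmer NARS probe minus NARS2.

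Over the whole array, 9643 probes were well above background on all 8 arrays, and 30 of them belonged to synthetases. None of the 30 was called higher and 5 were called lower, where 2.13% and 36.0% of all probes were. The 5 were HARS2 at -1.67, VARS2 at -1.51, NARS2 at -1.44, IARS2 at -1.26 and a further WARS probe at -1.78, lit on 0 of 4 CPE and 4 of 4 CONTROL arrays. This scaling moved the median of all probes to -1.05, and the median of the 30 was -0.92. In the authors' deposited table, YARS read -0.21, the dimmer NARS probe -0.46, WARS2 -0.69 and DARS -0.67, CPE minus CONTROL. The whole-array comparison gave nearly the same values, -0.21, -0.47, -0.69 and -0.67 in that order, and none passed. Both rest on the same 8 arrays and are not separate evidence.

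Of the probes outside the lit area, that of GARS, the glycyl-tRNA synthetase, had processed signals of 2596, 371.2, 1643 and 2080 intensity units on the CPE arrays. On the CONTROL arrays they were 681.5, 105.4, 561.5 and 146. Its spot was lit on 3 of 4 CPE arrays and on no CONTROL array, and the groups overlapped. The log2 difference of 1.33 did not pass over the whole array (SE 0.58, limma adjusted p = 0.0597). A second RARS probe, lit on 3 CPE and 4 CONTROL arrays, read 0.18 there (SE 0.50) and did not pass either. Before scaling, its processed signals were 307.6, 268.9, 206.2 and 281.6 on the CPE arrays. On the CONTROL arrays they were 126.4, 136.4, 142.2 and 85.63. In the whole-array comparison the first RARS probe read -0.61, and the median of all probes was -1.05. Over the whole array, the third NARS probe read -1.11, EPRS -0.84, SARS2 0.55 and YARS2 0.058, and none of them passed. The SARS2 spot was lit on 4 CPE arrays and 0 CONTROL arrays, and the EPRS and YARS2 spots on none.

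The list of synthetase partners and tRNA charging had 9 tested probes of 8 of its 18 genes on the array, with 4 called higher and 1 lower and a median of 0.25. Over all probes, 22.9% were called higher and 25.5% lower. Beside the AIMP2 probes, DTD1, which removes D-amino acids from tRNA, was higher at 0.67 (SE 0.20, limma adjusted p = 0.021). EEFSEC, the elongation factor for selenocysteine, was higher at 0.45 (SE 0.10, adjusted p = 0.00714), and SECISBP2, which binds selenoprotein mRNAs, was lower at -0.35 (SE 0.10, adjusted p = 0.0218).

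The amino acid response list, genes around the kinase GCN2 and the factor ATF4 that cells use when uncharged tRNA builds up, had 12 tested probes of 11 of its 30 genes. Of these, 4 were higher and 3 lower, with a median of -0.084, beside the same 22.9% and 25.5% of all probes. EIF2AK4, which encodes GCN2, was higher at 0.62 (SE 0.21, limma adjusted p = 0.0353). ALDH18A1, a proline synthesis enzyme, was higher at 0.55, just under the threshold (SE 0.20, limma adjusted p = 0.0499). PPP1R15A, a phosphatase subunit that reverses the response, was higher at 0.40 (SE 0.093, limma adjusted p = 0.00778). The amino acid transporters SLC7A1, SLC7A5 and SLC38A2 were lower at -0.80 (SE 0.15), -0.67 (SE 0.066) and -0.35 (SE 0.10). A second SLC38A2 probe read -0.34 (SE 0.18) and did not pass.

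**Figure D5:**
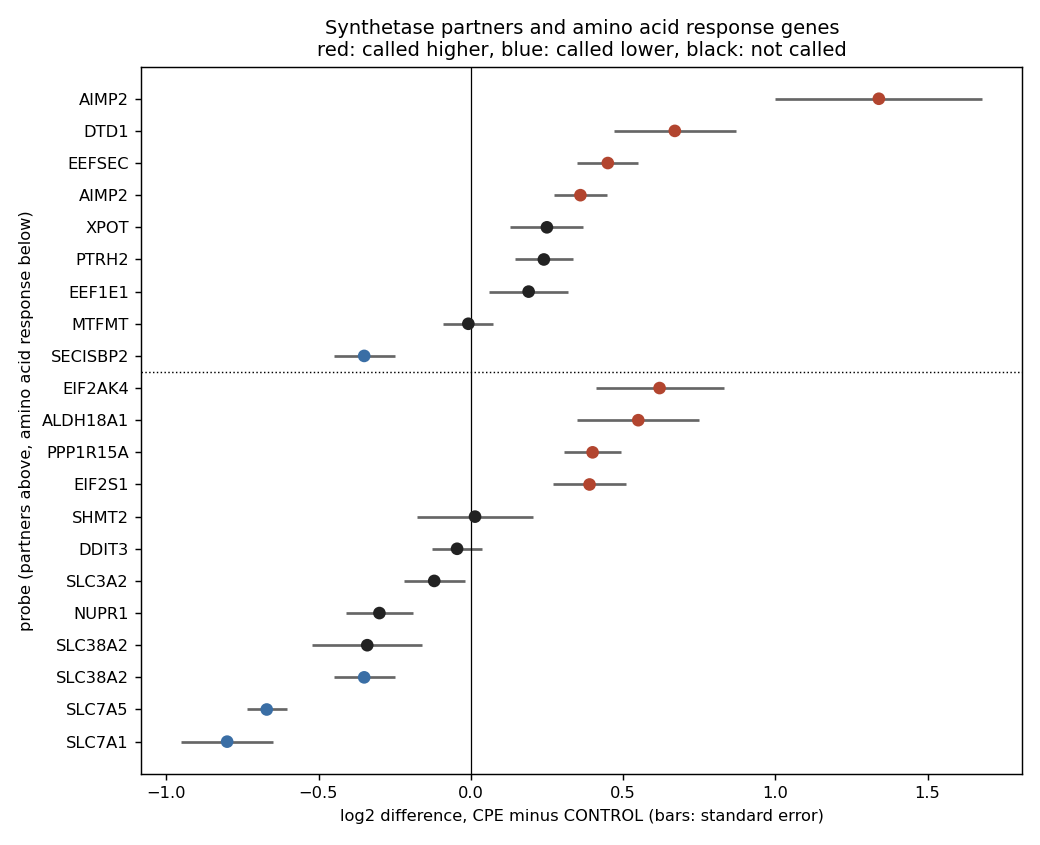
Points give log2 differences, CPE minus CONTROL, with standard errors for probes of synthetase partners (above the dotted line) and of the amino acid response (below). The AIMP2 probes are at 1.34 and 0.36, and the transporters SLC7A1 and SLC7A5 at -0.80 and -0.67.

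Blood cell markers moved between the groups as well. Of 20 blood markers, 14 had a lit probe, and each of these was well above background on all 8 arrays. All 4 probes of the T cell genes CD3D, CD3E and CD3G were higher, and their summed signal, relative to the 75th percentile of each array, was 24 to 26.1 in CPE and 15.1 to 16 in CONTROL. The 3 monocyte probes summed to 4.48 to 7.89 in CPE and 9.91 to 12.6 in CONTROL, with 2 called lower. Both of these were CSF1R probes, at log2 -0.74 (SE 0.20) and -0.32 (SE 0.071). CD14, the other monocyte gene, read 0.053 (SE 0.13) and did not pass. The brightest of the 3 was a CSF1R probe, so the sum mostly follows that gene. The NK cell probe ranged from 1.9 to 2.75 against 3.93 to 4.35, and the platelet probe from 1.39 to 1.96 against 0.522 to 0.674. The 3 neutrophil probes summed to 94.5 to 110 against 84.2 to 93.5, with the CXCR2 probes lower and S100A12 higher. B cell probes summed to 34.5 to 41.6 against 37.6 to 40.8. The brightest was a CD79A probe, at log2 -0.058 (SE 0.091), so the sum mostly follows it. The other CD79A probe was called lower, at -0.38 (SE 0.084). MS4A1 at -0.12 (SE 0.074) and CD79B at 0.17 (SE 0.088) did not pass. The PTPRC probes, a marker of all leukocytes, summed to 10.8 to 34.1 against 7.19 to 13.1, and the red cell gene HBB to 104 to 166 against 100 to 124. CORO1A, S100A8, S100A9, NCR1, PF4 and ALAS2 had no probe lit on all 8 arrays. Of 5 genes not typical of blood, KRT8 and COL1A1 had lit probes well above background on all 8 arrays, summing to 3 to 3.43 in CPE and 4.03 to 4.62 in CONTROL. The COL1A1 probes went opposite ways, at log2 -0.70 (SE 0.10, called lower) and 0.52 (SE 0.20, not passed). KRT8 read -0.091 (SE 0.069) and did not pass. The part of these markers in the synthetase differences was not tested.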

How the data were processed

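Synthetase genes, gene lists and the lit area were chosen with earlier results of these data known. The 8 single-colour Cy3 arrays were deposited as scanner output with a processed signal intensity for every spot. The authors used Agilent Feature Extraction 10.10.1.1 per the submitters' processing notes; the software's background correction came before deposit, and arrays were not yet scaled to each other. In the authors' deposited series table, each probe has 1 log2 value per group, with the scaling and centring steps not given in the sources used here, and it also supplied the symbols and probe sequences. Other tools and the array's genome positions are not given in the sources used here, so no coordinates are printed.

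Each array lost its 1417 control spots of 45220 and its 12 to 73 outlier spots, and repeated spots of 1 probe entered as their mean. No spot was saturated. The 75th percentile of processed signal was 53.4 to 279.8 intensity units per array, and the number of arrays limits the precision. From log2 processed signal, the 75th percentile over lit probes was subtracted on each array. For the lit area, each spot was given the 90th percentile of log2 median raw intensity among its 61 neighbours, and the limit was 1.5 below the array's 90th percentile of local values. Groups were compared by probe with limma 3.58.1 in R 4.3.3 (two-sided, empirical Bayes, Benjamini-Hochberg, threshold 0.05). The fit was also run on simulated data with noise drawn independently for each probe and array. That run cannot speak to deviations that many probes of an array share after scaling. Its noise setting was changed after a first run recovered too few of the changed probes. A probe needed values on at least 2 arrays per group. Arrays correlated at 0.97 to 0.998 within CPE, 0.985 to 0.997 within CONTROL and 0.918 to 0.97 between groups.

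Each synthetase with a tested probe is named, except 1 that counts and medians include and that is not reported here, the others with the reason they were not tested, and up to 3 called genes each way from the context lists, which were partners of synthetases and the amino acid response. Through a RefSeq gene table, used for names only, 31 of the 35 genes matched by accession and 3 by symbol, and VARS was not matched; the files' names were kept. Alternatives covered scaling, background correction, filters, variance, array weights, the lit area, the unit tested, the threshold and leaving out each array. The planned normexp correction used median in place of mean spot signals, because the files used here hold medians. Slide as a block could not be fitted, since each slide holds 1 group.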

Additional observations from a re-analysis of the deposited data

Results flagged for a closer look

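Each tested synthetase probe reported by name was checked in each group of 4 arrays for an array whose gap to its nearest neighbour took up most of the group's range (Dixon's test at its 95% critical value). This check marks about 1 in 20 groups by chance, and 7 of 43 groups were marked. All marked arrays were CPE array 3 or CONTROL array 4. On CPE array 3, YARS read 0.55 against -0.55 to -0.40 on the other CPE arrays, RARS read 2.50 against 1.54 to 1.63, and HARS2 read 0.70 against 1.59 to 1.66. Before scaling, processed signals on CPE array 3 were 579.5 for YARS, 2238 for RARS and 642.5 for HARS2. On the other CPE arrays they were 469.2 to 563.9, 2070 to 2166 and 2060 to 2297. On CONTROL array 4, the WARS probes read 0.86 against 1.62 to 1.74 and 0.22 against 1.15 to 1.20. VARS read 2.94 there against 2.72 to 2.75, and WARS2 read -0.023 against -0.24 to -0.21. The surroundings of the WARS spots had a local log2 brightness of 10.16 and 10.04 on CONTROL array 4, against 11.04 to 11.12 and 10.92 to 11.01 on the other CONTROL arrays. For YARS, RARS and HARS2 the surroundings on CPE array 3 were 11.08, 11.26 and 12.42, against 10.87 to 11.05, 11.12 to 11.22 and 12.36 to 12.4. The part of the surroundings in these values was not tested.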

How the results depend on the processing

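In the lit area, 4 synthetase probes were called higher and 0 lower. The count of higher probes was 1 without scaling, 8 with array weights, 11 with local centring and 2 at an adjusted p under 0.01. By gene these counts were 1, 7, 9 and 2. In the same order, 273, 2559, 3194 and 984 of all 7219 probes were called higher. Leaving out each array gave 3 to 5 higher synthetase probes, and 1293 to 1925 over all probes. The count of lower probes, and of lower genes, was 1 with quantile normalization, normexp, no filter, the replicate block or a limit of 1, then 5 with array weights, 2 with local centring and 0 to 3 when leaving out each array. Of all 7219 probes, 1817, 925 and 1784 were called lower with quantile normalization, normexp and the replicate block. Array weights gave 2630, local centring 2001, and leaving out each array 1579 to 2143. No filter gave 3669 of 13058 probes, and a limit of 1 gave 1523 of 5723. In the lit area, unadjusted limma p was under 0.05 for 7 of the 23 synthetase probes and for 4021 of all 7219. Over the whole array, 0 synthetase probes were called higher, against 3 with scaling to bright probes, 1 without scaling, 6 with no filter, 5 with the filter on 1 group, 1 with the replicate block and 0 to 1 when leaving out each array. Of all 9643 probes, 1038, 446 and 266 were called higher with scaling to bright probes, without scaling and with the replicate block. No filter gave 2662 of 43652 probes, and the filter on 1 group gave 2585 of 14906. The 5 lower calls of synthetase probes there became 2 with quantile normalization, scaling to bright probes or normexp, 0 without scaling or with no filter, 11 with the replicate block, and 0 to 14 when leaving out each array (14 without CPE array 4, 0 without CONTROL array 4). Of all 9643 probes, 2040, 2084 and 1859 were called lower with quantile normalization, scaling to bright probes and normexp. The count was 621 without scaling, 4881 with the replicate block and 5228 without CPE array 4. No filter gave 3653 of 43652 probes, and leaving out CONTROL array 4 gave 1239 of 9635. Same-numbered arrays correlated at -0.116, -0.167, 0.288 and 0.413 in their deviations from the group means, so the numbers were not taken to pair arrays; with the replicate block, HARS2 at -0.55 and RARS at 0.51 passed (adjusted p = 0.0392 and 0.0477).

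These signs turned. Without scaling, LARS2 read -0.033, the brighter LARS probe -0.12, IARS -0.13, the brighter TARS2 probe -0.076, the brighter NARS probe -0.07 and AARS2 -0.0089. IARS read -0.014 and the dimmer TARS2 probe 0.031 with quantile normalization. With normexp, the brighter WARS probe read -0.053, the dimmer TARS2 probe 0.41 and NARS2 0.053. Array weights gave -0.18 and -0.06 for the WARS probes. Local centring gave 0.33 for VARS, 0.071 for IARS2, 0.088 for the dimmer TARS2 probe and 0.061 for FARSA, and a limit of 1 gave 0.00031 for that TARS2 probe. Leaving out each array gave -0.11 to 0.50 for the brighter WARS probe (lowest without CPE 3), -0.024 to 0.25 for the brighter NARS probe (lowest without CPE 2), -0.14 to 0.023 for the dimmer TARS2 probe (highest without CONTROL 2) and -0.21 to 0.50 for AARS2 (-0.079 without CPE 3, lowest without CONTROL 3). The cause was not tested. Of 513 values of single probes under alternatives, 445 kept their sign and side of the threshold.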
